A study of Mus musculus with 4 samples.

Results

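Metallothioneins are small cysteine-rich proteins that bind zinc and copper in the cell. Their genes are known targets of metal-responsive transcription factor 1, encoded by *Mtf1*, which binds metal response elements near the gene start when free zinc rises, and *Mt1* and *Mt2* are also known to respond to glucocorticoids and oxidative stress. Zinc enters the cytosol through transporters of the Slc39 family and leaves it through those of the Slc30 family, so that importers, exporters and metallothioneins together set the zinc that is free in a cell.

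The genes described here are *Mt1*, *Mt2* and *Mt3*, which encode metallothioneins, *Mtf1*, *Slc30a1*, which encodes a zinc exporter of the plasma membrane, and *Slc39a14*, which encodes an importer of zinc, iron and manganese. These 6 of the 32285 genes in the deposited tables were picked by symbol because the level of *Mt2* in activated muscle stem cells (MuSCs) was known to be high, so their levels are given as a description and carry no test between cell states. The study compared MuSCs of control and α-cdKO mice, in which the α-catenins that link cadherins to actin are deleted from MuSCs, to follow the fate of MuSCs that lack catenin-based adhesion. Controls were C57BL/6J mice of 3 to 4 months carrying Pax7CreERT2/+ and Rosa26-tdTomato, and α-cdKO mice carried in addition Ctnna1fl/fl and Ctnna3fl/fl. Mice of both genotypes received tamoxifen, and Cre is driven from *Pax7*, so deletion and label are limited to cells that express *Pax7* at that time and their progeny. Sorted tdTomato+ cells were profiled by droplet single-cell RNA-seq in 4 samples, 2 per genotype, each pooled from 2 littermates.

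After removal of barcodes with fewer than 1000 unique molecular identifiers (UMIs, each marking 1 captured molecule), fewer than 400 genes or 15% or more mitochondrial UMIs, 28790 cells remained. Control replicates 1 and 2 kept 5484 and 5354 cells, and α-cdKO replicates 1 and 2 kept 9786 and 8166. The median cell held 7723.5 and 8075 UMIs in control replicates 1 and 2, against 6452.5 and 7682.5 in α-cdKO replicates 1 and 2. Between 10 and 28 barcodes were shared by any pair of samples. Values per sample are given below in the order control 1, control 2, α-cdKO 1, α-cdKO 2, as CPM, the UMIs of a gene scaled to a fixed total for the cell group, so that 10000 CPM are 1% of the group's UMIs. Because each molecule is counted once at its 3′ end, CPM can be compared between genes without correction for length.

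*Ctnna1*, the α-catenin gene deleted in α-cdKO mice, was at 91.1, 74.7, 79.3 and 75.5 CPM in myogenic cells, and the genotypes overlapped. Its log2 fold change, α-cdKO over control, was -0.11 (SE 0.14, adjusted p = 0.856 by edgeR after Benjamini-Hochberg adjustment). *Ctnna3* had 1, 2, 2 and 7 UMIs. Counts of 3′ ends need not lie in the deleted exons, so these values do not check the genotype labels. By staining of single myofibers, the paper found most MuSCs left in α-cdKO mice still positive for αE- or αT-catenin at each time after tamoxifen. How far the profiled cells had lost these proteins was not measured. α-cdKO replicate 1 also stood apart in holding cells of both sexes. Cells with at least 2000 UMIs, 26789 of 27173 myogenic cells, were thinned to 2000 UMIs, and cells with fewer were left out of thinned values. Among the thinned myogenic cells of α-cdKO replicate 1, 4694 had a UMI of *Xist*, the RNA of the inactive X chromosome. These had no UMI of 4 Y-linked genes, while 1801 cells had the reverse. The other samples held 2, 1 and 2 myogenic cells of the first kind, against 2518, 1992 and 3498 of the second. Log2 fold changes between genotypes, and some levels, are therefore also given for cells with a Y-linked UMI alone. The ratio of *Mt1* to *Mt2*, the medians per cell and the counts of genes without overlap are given for all cells only.

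*Mt3*, *Mt2* and *Mt1* lie in this order on the plus strand of chromosome 8 (GRCm38), *Mt3* at chr8:94152607-94154146, *Mt2* at chr8:94172664-94173568 and *Mt1* at chr8:94179082-94180327. The gaps between them are 18517 and 5513 bases. *Mtf1* lies at chr4:124802104-124849800 and *Slc30a1* at chr1:191906767-191913247, both on the plus strand, and *Slc39a14* at chr14:70303469-70351425 on the minus strand. An antisense gene, *Gm45774* (chr8:94170748-94173412, minus strand), overlaps *Mt2*. RefSeq promoter windows of GRCm38.p6, from 250 bases before to 50 after the start, were found for 5 of the 6 genes, all but *Slc39a14*. The windows of the metallothionein pair that carried most of the counts, and of *Slc30a1*, the other gene here with more than 1 match, are shown 5′ to 3′ on the plus strand, with matches to the core of the metal response element in capitals. The core was searched as TGCACNC and TGCGCNC on both strands, N being any base, and no matches overlapped.
Mt1 chr8:94178839-94179138: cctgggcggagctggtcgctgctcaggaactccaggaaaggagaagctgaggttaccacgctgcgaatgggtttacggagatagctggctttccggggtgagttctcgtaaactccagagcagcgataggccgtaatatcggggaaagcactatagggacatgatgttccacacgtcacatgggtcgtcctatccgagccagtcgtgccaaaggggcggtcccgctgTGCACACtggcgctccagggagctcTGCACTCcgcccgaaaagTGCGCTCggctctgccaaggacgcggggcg
Mt2 chr8:94172368-94172667: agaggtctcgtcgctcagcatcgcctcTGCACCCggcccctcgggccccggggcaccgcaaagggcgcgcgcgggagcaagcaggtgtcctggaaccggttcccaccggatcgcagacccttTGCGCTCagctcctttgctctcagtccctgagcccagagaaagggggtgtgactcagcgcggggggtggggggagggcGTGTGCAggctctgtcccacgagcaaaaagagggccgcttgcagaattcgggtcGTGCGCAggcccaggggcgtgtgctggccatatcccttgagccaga
Slc30a1 chr1:191906531-191906830: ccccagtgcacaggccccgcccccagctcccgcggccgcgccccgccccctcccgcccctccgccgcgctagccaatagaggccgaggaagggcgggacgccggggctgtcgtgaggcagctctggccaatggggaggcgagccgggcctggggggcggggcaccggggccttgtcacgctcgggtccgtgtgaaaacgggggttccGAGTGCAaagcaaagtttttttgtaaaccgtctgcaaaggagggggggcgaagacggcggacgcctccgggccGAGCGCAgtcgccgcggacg

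The *Mt1* window held 3 matches, whose first bases lay at -23, 3 and 21 from the start. The *Mt2* window held 4, at -223, -128, -50 and 5, the last pair on the minus strand. *Slc30a1* had 2 matches, *Mt3* had 1 and *Mtf1* had 0. Of 32851 windows of the same length, 25.7% held at least 1 match, 7.114% at least 2, 1.969% at least 3 and 0.5175% at least 4. A match is a description of the letters and does not show that a factor binds there.

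Clustering without these genes among the variable genes gave 6 groups of 27173 myogenic cells. A group was named from marker genes only where at least 3 of them were raised. Quiescent-like cells (4289) had the highest *Pax7*, the stem cell transcription factor, at 179.5 ± 35.9 CPM (SD, n = 4 samples), against 39.2 ± 22.2 in activated-like cells (12097). *Myod1*, the myogenic factor made on activation, had the opposite order, 104.0 ± 19.4 and 867.6 ± 234 CPM. A group of 8537 cells led by *Dnaja4*, *Clu* and *Dnaja1* did not reach the marker rule and is called chaperone-led, with *Myod1* in between at 415 ± 96.4 CPM. Differentiated-like (1353), cycling-like (640) and mature-myocyte-like cells (257) were small groups. In the mature-myocyte-like group control replicate 2 had a median of 1243.5 UMIs per cell, against 4734 to 7761 in the other samples. This group also had *Myod1* at 714 ± 144 CPM, near its level in activated-like cells. *Ckm*, a mature-muscle gene, was at 572 ± 449 CPM there, against 19976 ± 2927 CPM in the mature-muscle-like barcodes set aside. Barcodes of mature-muscle-like (1139), immune-like (298) and endothelial-like cells (180) were set aside and serve for comparison.

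*Mt1* was among the most abundant transcripts of these sorted cells. The paper states that isolation and sorting stress and activate MuSCs, and that it saw this in these data as well. How much of the levels below arose during isolation was not tested. Over all myogenic cells it was at 25569, 19322, 15464 and 19815 CPM and ranked 2 among all genes in each sample. In activated-like cells it reached 34649, 29743, 23942 and 29155 CPM, where control replicate 1 was highest and α-cdKO replicate 1 lowest. Chaperone-led cells had 22976, 18539, 15391 and 18811 CPM, in the same order of highest and lowest sample. Quiescent-like cells had 5214, 2657, 2880 and 3629 CPM, so that every sample was far below its own activated-like cells and the genotypes overlapped. The ratio of activated-like to quiescent-like cells was 6.65, 11.2, 8.31 and 8.03, a mean log2 ratio of 3.07 ± 0.31 (SD, n = 4).

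*Mt2* followed *Mt1* at a lower level. It was at 10250, 8349, 5937 and 7291 CPM over all myogenic cells. In activated-like cells it was at 13989, 13471, 9487 and 11057 CPM, which made it gene 3, 3, 7 and 5 in rank, and both controls lay above both α-cdKO samples. The mean was 12001 ± 2108 CPM (SD, n = 4). Quiescent-like cells had 2129, 975, 1142 and 1231 CPM, with control replicate 1 apart from the other samples. The ratio of activated-like to quiescent-like cells was 6.57, 13.8, 8.31 and 8.98, a mean log2 ratio of 3.18 ± 0.45. This mean was 2.43 ± 0.36 and 2.66 ± 0.38 with clusters drawn at Louvain resolutions of 0.1 and 0.4 in place of 0.2. These are not the same groups of cells. At 0.1 no chaperone-led cluster was set apart, and the activated-like and quiescent-like clusters held 19528 and 5711 cells. The quiescent-like levels of *Mt1* and *Slc39a14* were also higher at resolution 0.4, as given under other observations.

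Together *Mt1* and *Mt2* took 4.86, 4.32, 3.34 and 4.02% of all UMIs of activated-like cells, against 0.734, 0.363, 0.402 and 0.486% of those of quiescent-like cells. These ranges did not overlap. There were 2.49, 2.31, 2.60 and 2.72 *Mt1* UMIs per *Mt2* UMI over all myogenic cells. Means of this ratio per cluster ran from 2.18 ± 0.402 in cycling-like to 2.69 ± 0.169 in chaperone-led cells, and single samples from 1.64 to 2.95. Both α-cdKO samples lay above both controls over all myogenic cells and in chaperone-led cells (2.53, 2.56, 2.83 and 2.85), activated-like cells (2.48, 2.21, 2.52 and 2.64), differentiated-like and cycling-like cells. The genotypes overlapped in quiescent-like and mature-myocyte-like cells, and the ratio was not tested. All these groups come from the same 4 samples. No background was drawn for such ratios. In CPM, 28.3% (differentiated-like) to 42.3% (quiescent-like) of genes with at least 10 CPM had no overlap in these groups.

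*Slc39a14*, the importer, was also higher in activated-like cells. In activated-like cells it was at 558, 619, 417 and 585 CPM, and in quiescent-like cells at 65.7, 38.4, 42.5 and 48.6 CPM. All 4 samples were higher in activated-like cells, by 8.49, 16.1, 9.83 and 12.1 times, and the genotypes overlapped in both groups. Its mean log2 ratio of 3.50 ± 0.40 lay within 1 SD of that of *Mt2*, although its level was far lower.

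The order of the cluster means was alike for these 3 genes. *Mt2* was highest in activated-like cells, then in mature-myocyte-like cells (10203 ± 929 CPM), chaperone-led cells (7085 ± 1514), differentiated-like cells (2168 ± 726), cycling-like cells (1674 ± 335) and quiescent-like cells (1369 ± 517). Since the clusters come from the same 4 samples, neighbours in this order were compared within each sample. Activated-like cells were above mature-myocyte-like cells in 3 of 4 samples for *Mt2* (mean log2 ratio 0.22 ± 0.26), mature-myocyte-like above chaperone-led cells in 4 of 4 (0.55 ± 0.27) and chaperone-led above differentiated-like cells in 4 of 4 (1.74 ± 0.38). Differentiated-like cells were above quiescent-like cells in 4 of 4, by 1.49 to 1.74 times. They were also above cycling-like cells in 4 of 4, but by 1.03 to 2.09 times (0.34 ± 0.49), and cycling-like were above quiescent-like cells in 3 of 4 (0.34 ± 0.56), so that the place of cycling-like cells was not separated beyond the spread. *Mt1* gave the same order with means of 29372 ± 4379, 24700 ± 4952, 18929 ± 3113, 5570 ± 1978, 3707 ± 1320 and 3595 ± 1156 CPM, and its activated-like samples overlapped with mature-myocyte-like ones, which in turn overlapped with chaperone-led ones. Within each sample, activated-like cells were above chaperone-led cells for *Mt1*, *Mt2* and *Slc39a14*, by mean log2 ratios of 0.64 ± 0.037, 0.77 ± 0.11 and 0.74 ± 0.20. *Slc39a14* means ran from 545 ± 88.6 CPM in activated-like through 376 ± 109, 329 ± 73.5, 116 ± 40.6 and 91.1 ± 33.8 to 48.8 ± 12.0 in quiescent-like cells. Within samples, its differentiated-like cells were above cycling-like ones in 2 of 4. Its mature-myocyte-like cells were above chaperone-led ones in 3 of 4 (0.17 ± 0.26). For *Mt1* the mean log2 ratio of cycling-like to quiescent-like cells was 0.03 ± 0.75, so these neighbours were not separated either.

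**Figure D1:**
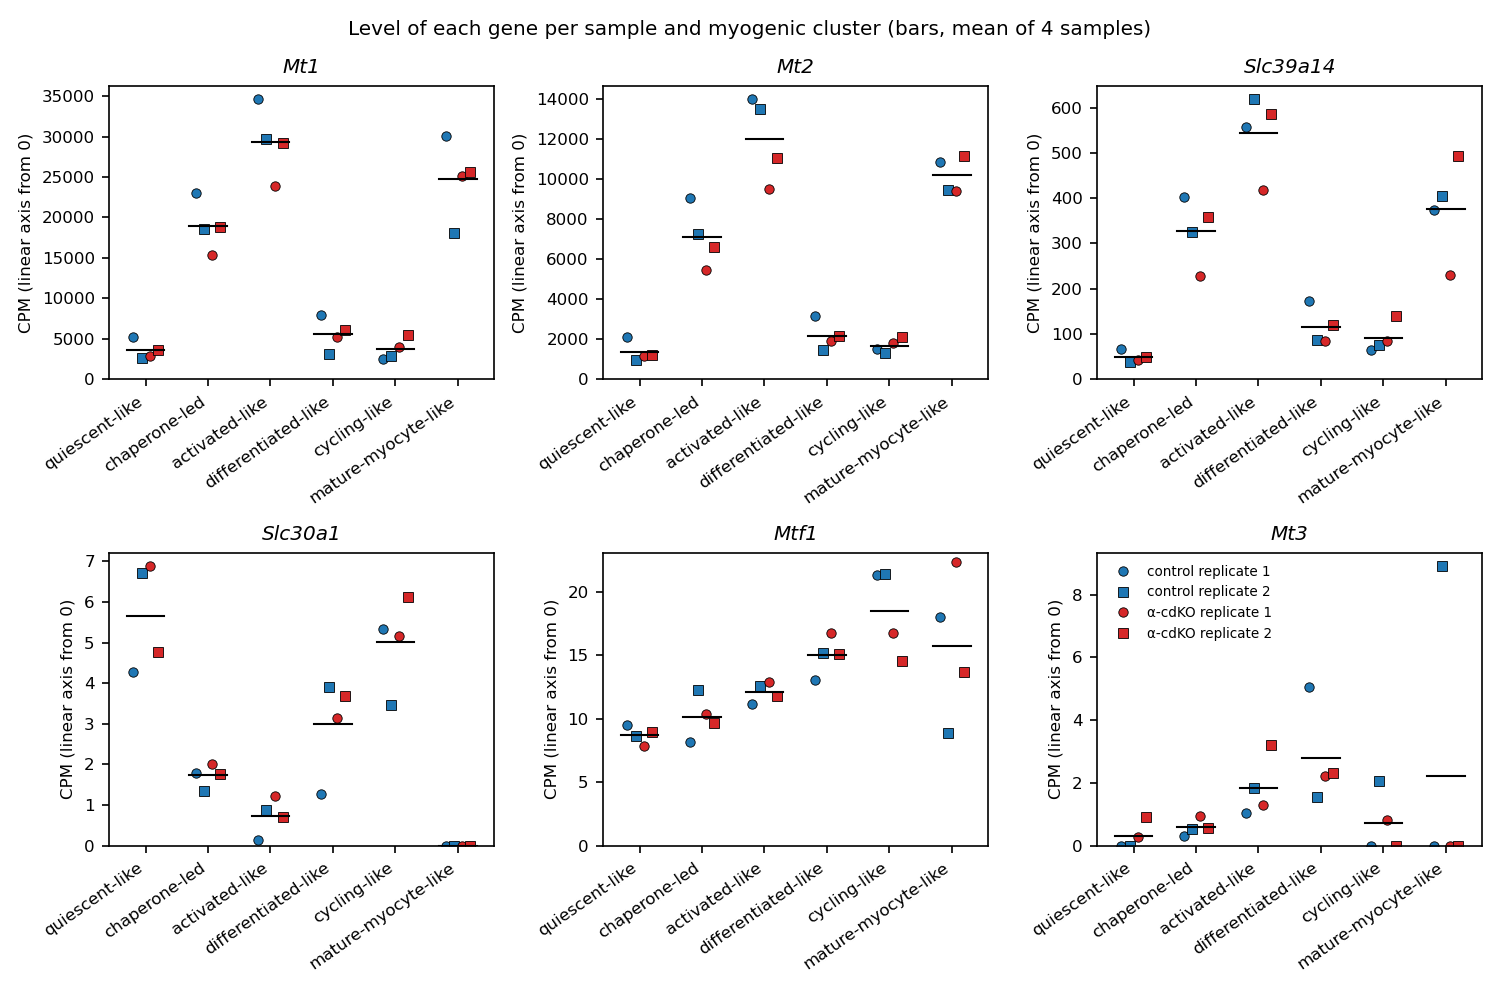
CPM of each of the 6 genes (y axes, linear from 0) in each myogenic cluster (x axes), with 1 point per sample, controls in blue, α-cdKO in red, replicate 1 as circles, replicate 2 as squares, and a bar at the mean of 4 samples. *Mt1*, *Mt2* and *Slc39a14* have their highest means in activated-like cells, at 29372, 12001 and 545 CPM, and their lowest means in quiescent-like cells.

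The plot of levels by cluster shows that the other genes of the set did not share this order. *Mtf1*, the zinc-sensing factor, was at 11.2, 12.6, 12.9 and 11.8 CPM in activated-like and 9.53, 8.65, 7.82 and 8.98 CPM in quiescent-like cells. All 4 activated-like values were above all 4 quiescent-like values, but the mean log2 ratio was 0.47 ± 0.21. Its highest mean, 18.5 CPM, was in cycling-like cells. A protein-coding gene on the other strand, *1110065P20Rik*, overlaps *Mtf1*.

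*Slc30a1* went the other way. Quiescent-like cells had 4.28, 6.73, 6.88 and 4.78 CPM, and activated-like cells 0.136, 0.868, 1.23 and 0.694 CPM, from 3, 15, 35 and 20 UMIs. All samples were lower in activated-like cells. After thinning to 2000 UMIs, 0.962% of quiescent-like cells had a UMI (exact 95% interval 0.688 to 1.31%) and 0.150% of activated-like cells (0.0887 to 0.236%), and 0 of 777 mature-muscle-like barcodes did, a count that would still permit a share of 0.386%. The activated-like share lay below that limit. Unthinned, the shares were 3.15, 0.570 and 0.0878%, at median depths of 5875, 7279 and 2888 UMIs. Endothelial-like cells, set aside, had the highest *Slc30a1* level, at 18.9, 14.4, 24.1 and 20.1 CPM.

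*Mt3*, best known from brain, was near the limit of detection, with 40, 48, 80 and 128 UMIs in all myogenic cells. It had 0, 0, 2 and 8 UMIs in quiescent-like cells. After thinning, a UMI was found in 0.341% of activated-like cells (0.245 to 0.462%), within the interval of mature-muscle-like barcodes (0.129%, 0.00326 to 0.715%).

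Counts per cell showed how *Mt1* and *Mt2* were spread within a cluster. At 2000 UMIs per cell the median activated-like cell had 22 *Mt2* UMIs, from 7 at percentile 10 to 43 at percentile 90, and 1.24% of cells had none. The median was 27, 26, 18 and 21 UMIs in the 4 samples, with the controls above the α-cdKO samples. In quiescent-like cells the median was 1 UMI and 44.0% of cells had none, but percentile 90 was 8 and percentile 99 was 28 UMIs, above the median of activated-like cells. *Mt1* had medians of 53 and 1 UMIs in these groups, and 36.0% of quiescent-like cells had none.

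A *Mt2* UMI was found in 98.8% of thinned activated-like cells (98.55 to 98.95%), 91.1% of chaperone-led cells and 56.0% of quiescent-like cells (54.5 to 57.5%). Mature-muscle-like barcodes, shown for comparison because free RNA can add UMIs to any barcode, had one in 14.8% (12.4 to 17.5%), and 12.2 to 19.2% in single samples. Of these 777 barcodes 493 came from control replicate 2, and the level of free RNA itself was not measured. For *Slc39a14* the shares were 56.1% in activated-like, 36.8% in chaperone-led and 7.51% in quiescent-like cells, against 1.54% in mature-muscle-like barcodes, where samples ran from 0 to 4.46%. Unthinned shares for *Mt2* were 99.5, 96.3, 75.9 and 25.3% in the same groups. Intervals and limits cover counting error only.

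**Figure D2:**
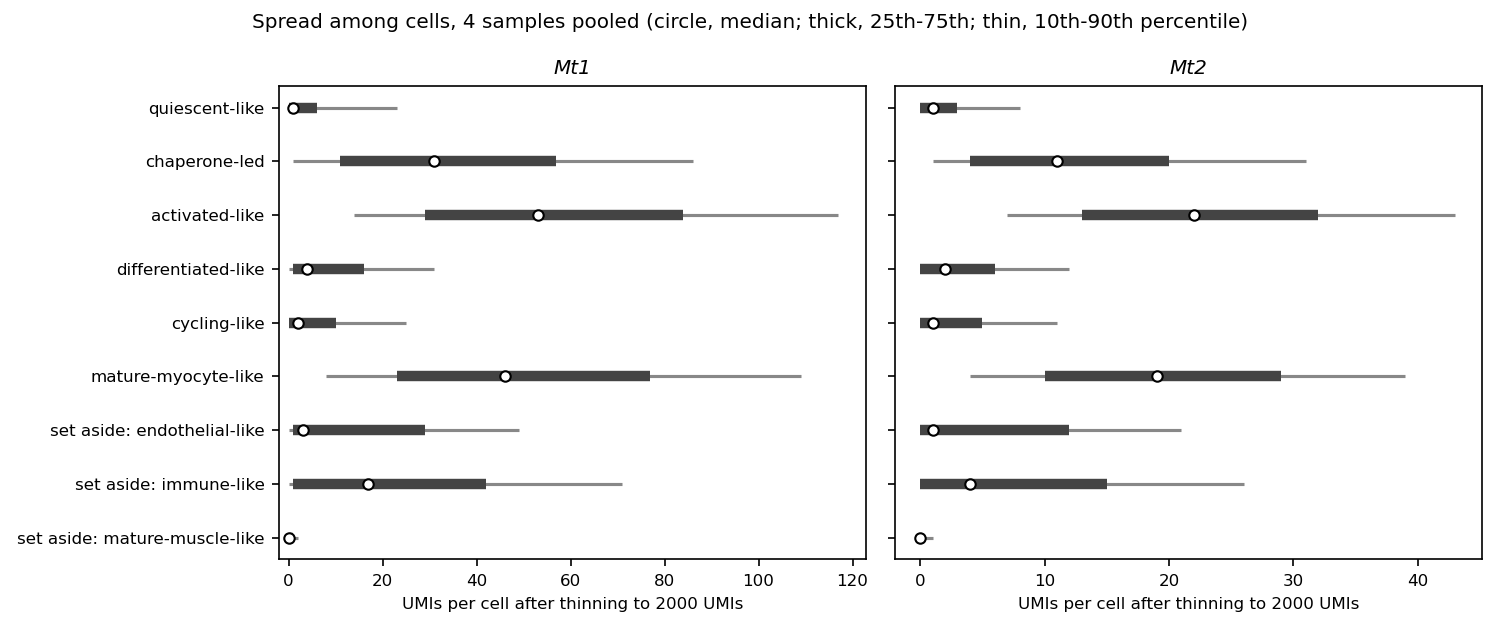
UMIs of *Mt1* and *Mt2* per cell after thinning to 2000 UMIs, by cluster with the cells of 4 samples pooled, with a circle at the median, thick lines from percentile 25 to 75 and thin lines from percentile 10 to 90. The median of *Mt2* is 22 UMIs in activated-like and 1 UMI in quiescent-like cells, and percentile 90 of quiescent-like cells is 8 UMIs.

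The spread plot treats the genes singly. Across cells of 1 sample, Pearson's r between *Mt1* and *Mt2* was 0.47 to 0.55 in activated-like cells, 0.64 to 0.72 in chaperone-led cells and 0.67 to 0.71 in quiescent-like cells. These cells share a library and were thinned to the same depth. Over the 24 combinations of sample and cluster, the genes most like *Mt2* in log2(CPM + 5) among 6390 were *Sdc4*, a cell-surface proteoglycan known in MuSCs (r = 0.991), *Mt1* (0.990), *Adarb1* (0.974), *Slc39a14* (0.973) and *Mpp7* (0.969). *Mtf1* was at -0.067, rank 2578. Across activated-like cells, among 1080 genes, the closest were *Mt1* (mean r = 0.502 over the 4 samples), *Ifitm3* (0.169), *Btg1* (0.152), *Gpx3* (0.149) and *Sdc4* (0.144), and *Slc39a14* was at 0.050, rank 58.

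Among other genes of metal and stress handling with at least 10 CPM over all myogenic cells, 4 of 4 further Slc39 importers were higher in activated-like than in quiescent-like cells in all 4 samples. The background was 45.8% of 5940 genes higher and 38.0% lower in all 4 samples. *Slc39a1* and *Slc39a6* were at 1.82 times each, *Slc39a7* at 1.47 times and *Slc39a10* was at 1.18 times. Of 3 exporters, *Slc30a5* was at 2.42 times and *Slc30a4* at 1.32 times, and *Slc30a9* was lower in all 4 samples, at 0.828 times. In the oxidative stress list 7 of 8 were higher, among them *Srxn1*, a sulfiredoxin, at 203 ± 49.0 against 16.2 ± 3.87 CPM, and *Nfe2l2*, the transcription factor Nrf2, at 4.05 times, while *Prdx1* was at 0.969 times. Of 7 copper genes, 1 was higher in all 4 samples, the importer *Slc31a1* at 4.14 times, and 4 were lower, *Atox1*, *Ccs*, *Cox17* and *Commd1*. Of 10 glucocorticoid-response genes 6 were higher, with *Fkbp5* at 4.02 times, and 3 were lower, *Tsc22d3*, *Dusp1* and the receptor gene *Nr3c1*.

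Activated-like and chaperone-led cells dominate the level over all myogenic cells, so this filter leaves out genes found mainly in quiescent-like cells. With at least 10 CPM in either state, an alternative chosen after seeing the data, 4 of 5 importers were higher in activated-like cells in all 4 samples and 1 was lower. That importer, *Slc39a13*, was at 3.15 ± 0.451 CPM in activated-like and 18.9 ± 3.59 CPM in quiescent-like cells. Of 4 exporters 3 were then higher and 1 lower, and of 10 oxidative stress genes 7 were higher and 2 lower. The lower pair were *Hmox1*, which encodes heme oxygenase 1, at 5.14 ± 0.884 against 16.4 ± 3.31 CPM, and *Keap1*, whose product holds Nrf2 in check, at 3.24 ± 0.485 against 11.9 ± 2.19 CPM. The copper and glucocorticoid-response counts were as above. The background of this filter was 41.4% of 6802 genes higher and 44.3% lower.

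**Figure D3:**
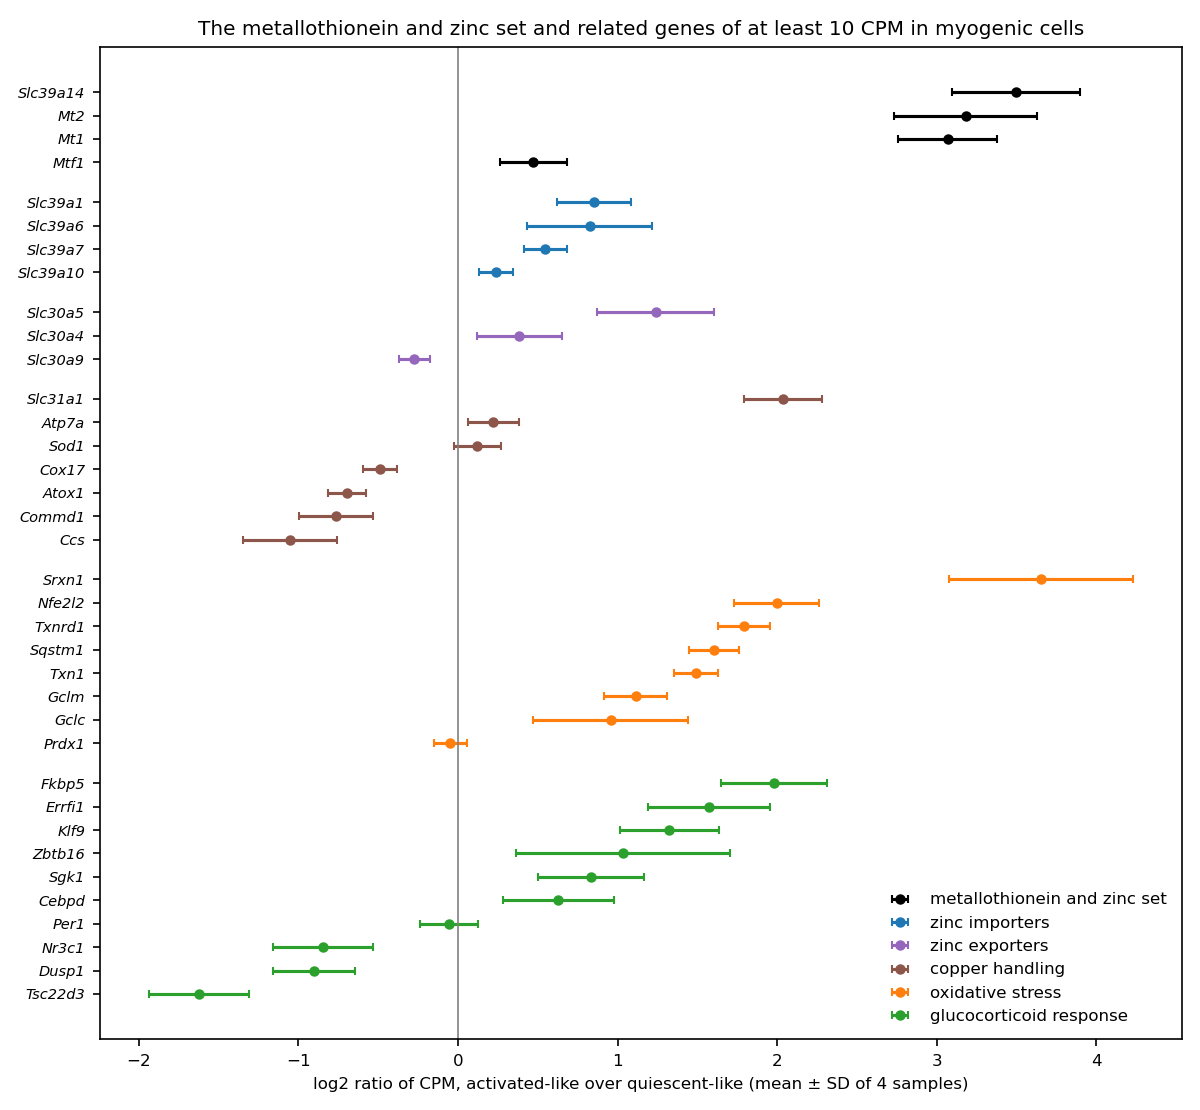
Log2 ratio of activated-like to quiescent-like CPM for the metallothionein and zinc set and the other fixed lists, for genes of at least 10 CPM over all myogenic cells, with points at the mean and bars of 1 SD over 4 samples. *Slc39a14*, *Mt2* and *Mt1* lie at 3.50, 3.18 and 3.07.

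The plot of state ratios places *Srxn1*, at 3.65 ± 0.57, above *Slc39a14*, *Mt2* and *Mt1*, as the one gene of the other lists whose mean reached that of *Mt1*.

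Between genotypes, the mean of *Mt2* in activated-like cells was 0.748 times the control mean in α-cdKO samples, and no gene of the set passed the test. UMIs were summed per sample and tested over all genes by the edgeR quasi-likelihood test with Benjamini-Hochberg adjustment. In all myogenic cells 0 of 6 were called, where 0.178% of 14639 genes were. In quiescent-like cells 0 of 5 tested were called (background 0.0952% of 11551 genes) and in activated-like cells 0 of 6 (0.163% of 12242 genes). At an unadjusted p under 0.05 the counts were 1, 0 and 1, the gene being *Mt2* each time, where 7.04, 8.2 and 6.8% of all genes tested were under it. DESeq2 called 0 in each. The median log2 fold change of the set was -0.14, -0.15 and -0.06 in these comparisons, against -0.01 over all genes in each. With 2 samples against 2, an exact permutation test of a single value cannot go below p = 0.3333. Since nothing but the pooling of litters is stated on their origin, these p-values measure the spread between these samples.

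*Mt2* in activated-like cells had a log2 fold change of -0.39 (SE 0.097, adjusted p = 0.348, edgeR with Benjamini-Hochberg adjustment). Both α-cdKO samples were below both controls. Without control replicate 2 the adjusted p for *Mt2* in activated-like cells was 0.0432 (edgeR, Benjamini-Hochberg, log2 fold change -0.41), and 258 genes were then called in place of 20. In all myogenic cells the log2 fold change of *Mt2* was -0.50 (SE 0.17, adjusted p = 0.644), and in quiescent-like cells -0.34 (SE 0.28, adjusted p = 0.769, edgeR with Benjamini-Hochberg adjustment in both). Without control replicate 1 the quiescent-like value turned to 0.29. The clusters did not make up the same part of each sample. Differentiated-like cells, which were low in *Mt2*, were 3.07, 3.50, 7.21 and 4.45% of myogenic cells, higher in both α-cdKO samples. Cycling-like cells were 0.568, 1.80, 4.32 and 1.54%, highest in α-cdKO replicate 1, and activated-like cells 49.8, 42.3, 44.1 and 42.8%. The part of these shares in the values over all myogenic cells was not tested.

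*Mt1* had log2 fold changes of -0.35 (SE 0.19), -0.23 (SE 0.25) and -0.25 (SE 0.11) in all myogenic, quiescent-like and activated-like cells. Those of *Slc39a14* were -0.32 (SE 0.22), -0.15 (SE 0.22) and -0.20 (SE 0.16), and those of *Mtf1* 0.05 (SE 0.16), -0.07 (SE 0.21) and 0.09 (SE 0.18). With a sample left out, the quiescent-like values ran from -0.61 to 0.30 for *Mt1* and from -0.46 to 0.25 for *Slc39a14*. *Slc30a1* was at 0.39 (SE 0.30) in all myogenic cells and *Mt3* at 0.52 (SE 0.33), each on few UMIs. In activated-like cells, on 73 UMIs, the α-cdKO mean of *Slc30a1* was 1.92 times the control mean and the genotypes overlapped. With a sample left out its log2 fold change there ran from 0.17 to 2.82. The lowest adjusted p among these genes was 0.735, for *Mt1* in activated-like cells (edgeR, Benjamini-Hochberg).

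**Figure D4:**
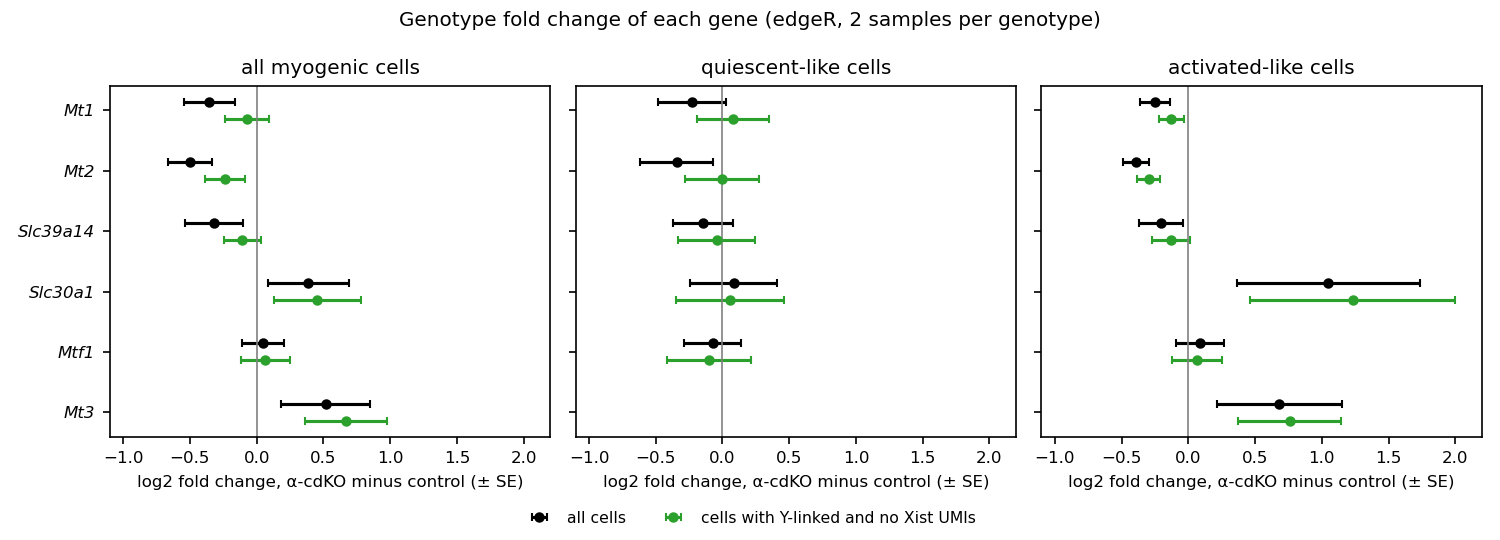
Log2 fold change, α-cdKO over control, of the 6 genes in all myogenic, quiescent-like and activated-like cells from the edgeR fit (x axes), with bars of 1 SE, black for all cells and green for the fit on Y-linked cells alone. With all cells *Mt2* lies at -0.50, -0.34 and -0.39, and 0 of the genes passed the adjusted threshold.

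The fold change plot also gives the fit on Y-linked cells alone, since α-cdKO replicate 1 held both kinds. Within that sample *Mt2* was at 5268 CPM in thinned cells with *Xist* and 9022 CPM in those with a Y-linked UMI, and *Mt1* at 13632 and 24583 CPM. In activated-like cells *Mt2* was at 8693 and 11026 CPM, and in quiescent-like cells at 1140 and 2257 CPM. Sex and mouse cannot be told apart in 1 pool of 2 animals. The 2 kinds of cells were also not selected alike. In control replicate 1, 2518 of 5242 thinned myogenic cells had a Y-linked UMI and no *Xist* UMI. In α-cdKO replicate 1, activated-like cells were 1773 of the 4694 cells with *Xist* and 1087 of the 1801 with a Y-linked UMI. The part of this selection and mix in these values was not tested. With Y-linked cells alone in every sample, *Mt2* in all myogenic cells was at 10457, 8583, 8534 and 7622 CPM after TMM scaling, a log2 fold change of -0.24 (SE 0.15, adjusted p = 0.993, edgeR with Benjamini-Hochberg adjustment). In activated-like cells it was at 13734, 13295, 10871 and 11132 CPM, a log2 fold change of -0.30 (SE 0.084, adjusted p = 0.738, edgeR with Benjamini-Hochberg adjustment), and the genotypes still did not overlap. In quiescent-like cells it was at 2084, 962, 1690 and 1355 CPM, a log2 fold change of -0.0017 (SE 0.28), and the genotypes overlapped. *Mt1* on Y-linked cells had log2 fold changes of -0.072 (SE 0.17), 0.078 (SE 0.27) and -0.13 (SE 0.093) in all myogenic, quiescent-like and activated-like cells, nearer to 0 than with all cells. Over all myogenic cells it was at 25994, 19659, 22997 and 20433 CPM, and the genotypes overlapped. The log2 fold changes of *Slc39a14* were -0.11 (SE 0.14), -0.043 (SE 0.29) and -0.13 (SE 0.14), also nearer to 0. In chaperone-led cells, thinned and with Y-linked UMIs, *Mt2* was at 9223, 8632, 7037 and 7030 CPM, with both α-cdKO samples below both controls.

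Some other measures also had no overlap between genotypes in activated-like cells, and only such measures are named here. Of single genes with at least 10 CPM there, 36.6% had no overlap. Median depth was 7724, 8702, 6326 and 7448 UMIs, lower in both α-cdKO samples. The 5 smooth muscle and pericyte markers summed to 311, 288, 399 and 387 CPM, higher in both α-cdKO samples, with *Tagln* the most abundant at 182 CPM and 4 of 5 found in every sample. The 7 immune markers summed to 4.44, 3.53, 1.02 and 1.67 CPM, lower in both, with *S100a9* the most abundant at 1.03 CPM and 5 of 7 found in every sample. The 4 tenocyte markers summed to 1.72, 1.33, 0.635 and 1.28 CPM, also lower, with *Scx* at 1.07 CPM and 2 of 4 found in every sample. No marker of these 3 lists was at 0 in all samples. Their part in the *Mt2* values was not tested.

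Whether the genotypes overlapped was counted in each group over the genes of the set with at least 10 CPM there. These were *Mt1*, *Mt2*, *Slc39a14* and *Mtf1*, except that *Mtf1*, at a mean of 8.7 CPM, was left out in quiescent-like cells. In activated-like cells *Mt1* and *Mt2* had both α-cdKO samples below both controls (background 19.8% of genes) and 0 had them above (16.8%). In all myogenic cells *Mt2* alone was below (17.5%) and 0 above (20.8%), and in chaperone-led cells again *Mt2* alone was below (19.9%) and 0 above (20.2%). In quiescent-like cells 0 were below (23.1%) and 0 above (19.2%), in differentiated-like cells 0 below (16.7%) and 0 above (11.6%), and in mature-myocyte-like cells 0 below (16.8%) and 0 above (15.9%). In chaperone-led cells median depth was 8442.5, 8869, 6632 and 8361 UMIs, lower in both α-cdKO samples. Over all myogenic cells it was 7777, 8567, 6501.5 and 7693 UMIs. *Pax7*, at 156, 100, 63.0 and 91.4 CPM, and *Gm45774*, at 10.0, 6.00, 2.82 and 4.32 CPM, were also lower in both in chaperone-led cells. *Myf5*, *Myod1*, *Fos* and *Hspe1* overlapped there. Their part in the *Mt2* values was not tested.

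In the cycling-like cluster the order was the reverse. *Mt1* was at 2496, 2893, 3995 and 5443 CPM, *Mt2* at 1521, 1307, 1789 and 2080 CPM and *Slc39a14* at 63.9, 76.0, 84.4 and 140 CPM, with both α-cdKO samples above both controls for each. The ratios of means were 1.75, 1.37 and 1.60. Among genes of at least 10 CPM there, 16.4% had this order and 25.4% the opposite one, as *Mtf1* did. The cluster held 30, 81, 406 and 123 cells.

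This order was not found in the thinned cycling-like cells with Y-linked UMIs, which numbered 7, 25, 9 and 22. There *Mt1* was at 4071, 4180, 1556 and 4364 CPM, *Mt2* at 2071, 1760, 1111 and 2295 CPM and *Slc39a14* at 71.4, 160.0, 55.6 and 159 CPM. The genotypes overlapped for all 3 genes, and α-cdKO replicate 1 was the lowest sample. Its 312 cells with *Xist* had *Mt1* at 3817 CPM and *Mt2* at 1756 CPM. Control replicates 1 and 2 held 0 thinned cycling-like cells with *Xist* and no Y-linked UMI. Their *Mt1* and *Mt2* values in cells with a Y-linked UMI were still above those of all their cycling-like cells. Cells with a Y-linked UMI thus differed from the cluster they were taken from.

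Some other measures also had no overlap between genotypes in cycling-like cells, and only such measures are named here. Of single genes with at least 10 CPM there, 41.7% had no overlap. Control replicate 1 had 562944 UMIs in this cluster, so its sums of a few CPM rest on few UMIs. Median depth was 18930.5, 18850, 14360 and 16363 UMIs, lower in both α-cdKO samples. *Fos*, an immediate-early gene, was at 1625, 1132, 656 and 806 CPM, lower in both, and the 9 cycling markers summed to 3572, 4474, 3179 and 3504 CPM, also lower in both, with *Stmn1* the most abundant at 1216 CPM and 9 of 9 found in every sample. The 10 activated markers summed to 5361, 5707, 5071 and 5326 CPM, lower in both, with *Hspd1* at 1645 CPM and 10 of 10 found in every sample. The 6 endothelial markers summed to 1.78, 4.84, 9.04 and 6.12 CPM, higher in both, with *Pecam1* at 4.02 CPM, 1 of 6 found in every sample and *Kdr* at 0. The 7 immune markers summed to 7.11, 11.7, 2.90 and 1.88 CPM, lower in both, with *S100a9* at 2.28 CPM, 0 of 7 found in every sample and *Lyz2* at 0. Their part in the levels of *Mt1*, *Mt2* and *Slc39a14* was not tested.

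Of the other lists, 0 genes were called between genotypes in any of the 3 comparisons, by edgeR or by DESeq2, after Benjamini-Hochberg adjustment. At an unadjusted p under 0.05, edgeR gave 0 of 9, 2 of 8 and 0 of 9 importers tested in all myogenic, quiescent-like and activated-like cells, against 7.04, 8.2 and 6.8% of all genes. The counts were 0 of 5 exporters in each, 1 of 10 copper genes in each, 0 of 12, 1 of 11 and 0 of 12 oxidative stress genes, and 1, 2 and 2 of 10 glucocorticoid-response genes.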

How the data were processed

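The authors deposited, per the file headers, raw UMI counts per gene and cell barcode from Cell Ranger 7.1.0 on GRCm38 for 4 samples. Deposited totals were 48515992, 46099310, 73261352 and 74921651 UMIs. Cells were filtered as stated above, normalized and clustered with Seurat 5.3.0 (2000 variable genes without the metallothionein and zinc set, 30 principal components, a Harmony integration, Louvain resolution 0.2) and grouped by markers. Scrublet called 1, 4, 0 and 1 doublets, too few to have worked, so cells with the top scores were removed in an alternative run only. Summed UMIs per sample and cluster gave the levels. Genotypes were compared by edgeR 4.0.16 (filterByExpr, TMM, quasi-likelihood test, Benjamini-Hochberg adjustment over all genes tested, threshold 0.05), with DESeq2 1.42.0 as an alternative. In simulated data the test called 59, 53 and 55% of genes changed by a log2 fold change of 1 in all myogenic, quiescent-like and activated-like cells, and 92, 93 and 97% at 2. The genes named were the 6 of the set in every group and genes of the other metal, stress and glucocorticoid lists. The latter had at least 10 CPM over all myogenic cells or in either state, and not every such gene was named. The genes, lists and tests were chosen with earlier results of these data known. The replicate numbers did not pair the samples (correlation of deviations -0.24, 0.024 and -0.20 in the 3 groups). Versions used were R 4.3.3, Python 3.11.15 and scanpy 1.11.5.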

Additional observations from a re-analysis of the deposited data

Results flagged for a closer look

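The α-cdKO over control difference of *Mt1* had opposite directions in 2 clusters, with both α-cdKO samples below both controls in activated-like cells and above them in cycling-like cells. The log2 ratio of means was lower by 1.09 in activated-like cells (a difference of -1.09). For *Mt2* the same held between chaperone-led and cycling-like cells (-0.89) and between activated-like and cycling-like cells (-0.87). These differences were not tested, and control replicate 1 gave 30 cycling-like cells. Among thinned cycling-like cells with Y-linked UMIs (7, 25, 9 and 22 cells) *Mt1* was at 4071, 4180, 1556 and 4364 CPM and *Mt2* at 2071, 1760, 1111 and 2295 CPM, and the genotypes overlapped. In both controls these values were above those of all their cycling-like cells.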

How the results depend on the processing

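No gene of the set was called in any of the 3 genotype comparisons under the alternatives named at the outset that kept all samples. With a crossed replicate block, an alternative chosen after seeing the data, 1 was called in all myogenic cells (*Mt2*, adjusted p = 0.0306, edgeR with Benjamini-Hochberg adjustment). With the replicate block as numbered, 21, 140 and 19 genes were called in all myogenic, quiescent-like and activated-like cells, and 0 of the set. Leaving out each sample gave 0 to 1 of the set in activated-like cells, the lone sample of an arm being assumed to vary like the other group. Genes called in all myogenic cells were 26, against 120 by DESeq2, 15 without the low-count filter, 243 with the crossed block and 0 to 58 with a sample left out. In quiescent-like cells they were 11, against 23, 276 and 127, and 16 to 75. In activated-like cells they were 20, against 59, 82 and 89, 43 at Louvain resolution 0.1, and 19 to 258. The cause was not tested. Of the other lists, edgeR with Benjamini-Hochberg adjustment called *Sgk1* in quiescent-like cells with the replicate block and without the low-count filter, *Cebpd* in all myogenic cells with the crossed block, and *Cebpd*, *Tsc22d3* and *Prdx1* in activated-like cells without control replicate 2.

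The log2 ratio of *Mt2* was 2.43 and 2.66 at Louvain resolutions 0.1 and 0.4, where the clusters held other sets of cells. It was 2.98 to 3.34 with a sample left out. With a sample left out, log2 fold changes that changed sign ran from -0.070 to 0.18 (*Mtf1*, all myogenic cells), -0.61 to 0.30 (*Mt1*, quiescent-like), -0.77 to 0.29 (*Mt2*, quiescent-like), -0.19 to 0.030 (*Mtf1*, quiescent-like), -0.21 to 0.50 (*Slc30a1*, quiescent-like), -0.46 to 0.25 (*Slc39a14*, quiescent-like), -0.093 to 1.18 (*Mt3*, activated-like), -0.010 to 0.19 (*Mtf1*, activated-like) and -0.46 to 0.015 (*Slc39a14*, activated-like). On Y-linked cells alone, also chosen after seeing the data, *Mt1* in quiescent-like cells was at 0.078. The other log2 fold changes kept their direction under these settings. Shares of cells with a UMI rose with a depth of 4000 UMIs, as for *Mt2* in quiescent-like cells (68.5%). Depth limits *Mt3* and *Slc30a1*, and 2 samples per genotype limit every genotype comparison.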

Other observations

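At Louvain resolution 0.4, 2 clusters met the rule for quiescent-like cells. Together they held more cells than the 4289 quiescent-like cells of the report, so they include cells that lay in other clusters there, and the chaperone-led cluster held 7549 cells in place of 8537. In the 2895 cells led by *Hspa1a*, *Fos* and *Hspa1b*, *Mt1* was at 6637 ± 2511 CPM, *Mt2* at 2235 ± 923 CPM and *Slc39a14* at 97.6 ± 27.9 CPM (SD, n = 4). In the 2825 cells led by *Matn4*, *Neu1* and *Pou2f2* they were at 4095 ± 947, 1611 ± 396 and 55.0 ± 13.2 CPM. Median depth was 7515 and 5254 UMIs per cell in these groups.

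Among the cells set aside, immune-like cells had *Mt2* at 3796, 4976, 3428 and 6610 CPM and endothelial-like cells at 4848, 3160, 3995 and 5977 CPM, above quiescent-like cells in every sample. Mature-muscle-like barcodes had 746, 117, 251 and 803 CPM. The immune-like cluster held 298 cells, and with other random seeds an immune-like cluster held 42 cells.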
